A study of Homo sapiens with 2 samples.

Results

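The RAB genes encode the largest family of small GTPases that direct membrane traffic, and 62 of them were found among the 18141 gene symbols of the table by their name, RAB followed by a number and, for some, a letter from A to D. Each of the 62 had 1 row. Of 63 protein-coding RefSeq symbols of that form, RAB19 was the one not listed. The RNA was from asynchronous cultures of U2OS, a human cell line established from an osteosarcoma, held in 0.3 µM aphidicolin, an inhibitor of the replicative DNA polymerases, for 18 h. The 2 polyadenylated RNA libraries are replicates of this 1 group, and nothing says whether they came from separate cultures, so their spread may be technical. Untreated cells are not among the libraries used here, so all values are levels and none is a response to aphidicolin. Levels are RPKM, reads divided by exonic length in kilobases and scaled to the library's total reads, which were 13227805 for replicate 1 and 13020149 for replicate 2.

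A RAB protein works as a switch. Bound to GTP it sits on a membrane through lipid tails and recruits effectors such as tethers, motor adaptors and lipid kinases. An exchange factor loads the GTP, and a GTPase-activating protein has it hydrolysed. GDP dissociation inhibitors then lift the RAB off the membrane and carry it through the cytosol. Each compartment of the secretory and endocytic pathways carries its own RABs, and many exist as paralogs, gene copies whose products act at the same step.

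Some paralogs are so alike in sequence that their reads may be hard to tell apart, as the RAB6 genes show. RAB6A encodes the main RAB of retrograde traffic through the Golgi. The single-exon genes RAB6C and RAB6D are near copies of it, and RAB6B, enriched in neurons, is a more distant paralog. The lines below give their first 150 coding bases, 5′ to 3′, from GENCODE release 29 on GRCh38, with capitals where a base differs from RAB6A.
RAB6A: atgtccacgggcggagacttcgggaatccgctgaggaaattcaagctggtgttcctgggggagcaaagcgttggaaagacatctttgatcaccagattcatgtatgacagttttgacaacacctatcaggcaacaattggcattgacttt
RAB6C: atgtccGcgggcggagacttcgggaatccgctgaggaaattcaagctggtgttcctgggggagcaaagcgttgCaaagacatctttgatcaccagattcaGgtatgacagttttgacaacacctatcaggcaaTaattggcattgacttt
RAB6D: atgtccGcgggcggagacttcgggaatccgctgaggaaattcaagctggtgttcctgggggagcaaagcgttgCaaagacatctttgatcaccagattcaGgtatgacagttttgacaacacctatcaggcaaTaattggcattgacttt
RAB6B: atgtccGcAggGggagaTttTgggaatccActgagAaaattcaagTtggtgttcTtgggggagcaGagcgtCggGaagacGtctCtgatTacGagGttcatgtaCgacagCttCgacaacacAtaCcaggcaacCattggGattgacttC
The RAB6A stretch lies in 3 exons on the minus strand of chromosome 11, between 73720879 and 73760635. RAB6C holds it in 1 exon at chr2:129980116-129980265 on the plus strand, and RAB6D at chr2:131363571-131363720 on the minus strand. RAB6C and RAB6D each differed from RAB6A at 4 of these bases, and RAB6B at 25. Over their whole coding sequences, RAB6C and RAB6D differed at 4 of 762 bases and shared a run of 349 identical bases.

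Across the family, 48 of 62 genes (77.4%) reached 1 RPKM in both libraries. The same level was reached by 66.7% of all 17912 entries of the table and by 72.8% of its 15381 protein-coding entries. Every entry held reads in both libraries, so these shares, and those of the gene lists below, are of detected genes. The median RAB gene stood at 6.47 RPKM in replicate 1 and 6.91 in replicate 2, the median entry at 3.55 and 3.52, and the median protein-coding entry at 4.84 and 4.77. No test of the family against other genes was made. A level of 10 RPKM was passed by 23 RAB genes (37.1%), against 31.5% of protein-coding entries. The summed level was concentrated in few members: the 10 highest genes held 59.4% of it.

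**Figure D1:**
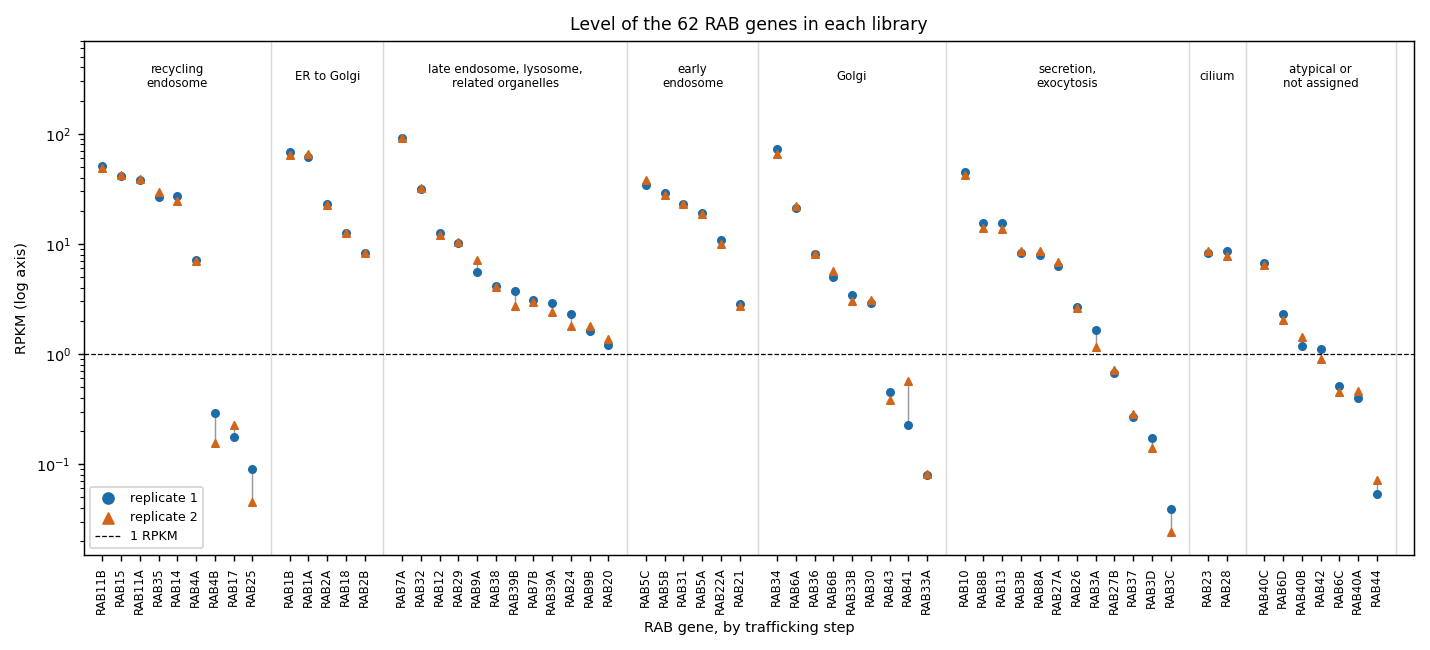
RPKM (log axis) of each RAB gene in replicate 1 (circles) and replicate 2 (triangles), ordered by level within each trafficking step, with a dashed line at 1 RPKM. Levels span from 0.0239 RPKM for RAB3C to 92.4 RPKM for RAB7A, and every step with genes below the line also holds genes above it.

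RAB7A, which directs fusion of late endosomes with lysosomes, was the highest, at 91.0 RPKM in replicate 1 and 92.4 in replicate 2. It lies on chromosome 3 from 128726122 to 128814796 and ranked 285 among all 17912 entries. RAB34, a Golgi RAB that also takes part in lysosome positioning and cilium formation, followed at 73.0 and 65.8 RPKM (chromosome 17, 28714281 to 28718429). The RABs of transport from the endoplasmic reticulum (ER) to the Golgi came next, RAB1B at 68.1 and 64.6 RPKM and RAB1A at 62.2 and 65.5. The ranges of RAB34 and RAB1B over the libraries overlapped, though RAB34 was the higher within each library. Those of RAB1B and RAB1A overlapped too, and their order changed between the libraries. Among all 61 neighbouring pairs in the order of the mean, 32 had overlapping ranges, a count that does not compare genes within a library. At the other end, RAB3C held 5 and 3 reads, RAB44 held 3 and 4, RAB25 held 2 and 1, and RAB33A held 1 read in each library. RAB3D, the next in level, held 10 and 8. Levels from so few reads are uncertain, and 7 members had fewer than 10 reads in at least 1 library.

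Grouped by trafficking step, with 1 step given to each gene from general knowledge of its product, the summed RAB level was spread over several steps. The recycling endosome led with 21.3% in replicate 1 and 21.4% in replicate 2, ahead of the ER to Golgi step with 19.3% and 19.5%. Late endosomes and lysosomes, with related organelles and autophagy, took 18.8% and 19.2%. Early endosomes held 13.2% and 13.5%, the Golgi 12.7% and 12.2%, and secretion and exocytosis 11.5% and 11.1%. RAB8A, RAB10 and RAB34 act at more than 1 step. With RAB8A and RAB34 counted as ciliary and RAB10 as recycling, the recycling share was 26.2%, the cilium share 10.5% in place of 1.86%, the Golgi share 4.70% in place of 12.4% and the secretion share 5.52% in place of 11.3%. With reads not divided by length, late endosomes and lysosomes held 12.0% in place of 19.0%, and early endosomes, at 18.1%, stood above the ER to Golgi step at 16.7%.

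**Figure D2:**
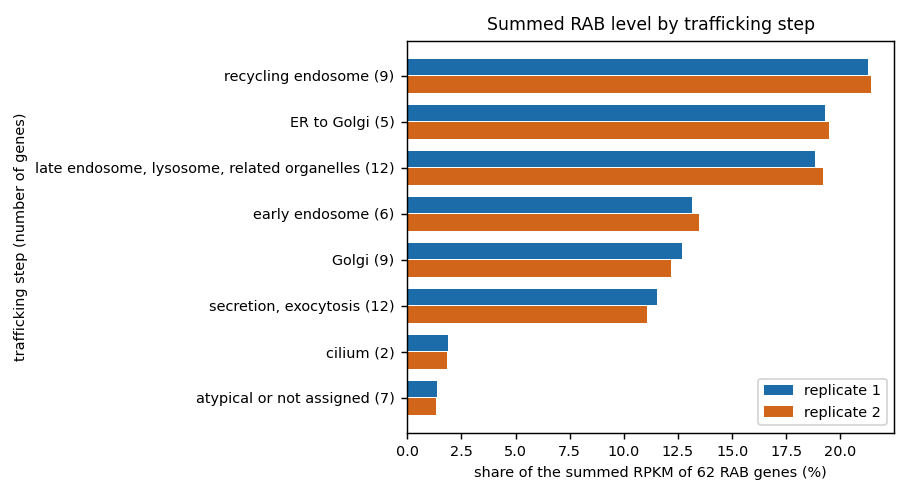
Share of the summed RPKM of the 62 RAB genes (%) taken by each trafficking step, as bars for replicate 1 and replicate 2, with the number of genes in brackets. The recycling endosome bars reach 21.3% and 21.4%, and the ER to Golgi step reaches 19.3% and 19.5% with 5 genes.

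In the first steps of the secretory pathway all 5 genes passed 1 RPKM, with a step median of 22.7 RPKM. After both RAB1 genes came RAB2A, which acts between the ER and Golgi, at 22.8 and 22.7 RPKM. RAB18, found on the ER and on lipid droplets, was at 12.6 RPKM in each library. RAB2B was lowest, at 8.28 and 8.22. In contrast to this step, the Golgi group was uneven: 6 of 9 genes passed and the median was 3.25 RPKM, while RAB34 alone held 62.2% of its sum. RAB6A stood at 21.2 and 22.0 RPKM. RAB36, the closest relative of RAB34, was at 8.14 and 8.02, RAB33B, which links the Golgi to autophagy, at 3.46 and 3.03, and RAB30 at 2.91 and 3.08. The genes below 1 RPKM were RAB43 (0.454 and 0.385), RAB41 (0.225 and 0.571) and RAB33A (0.0800 and 0.0813).

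All 6 early endosome genes passed, with a median of 20.8 RPKM. The RAB5 genes drive fusion of early endosomes. RAB5C stood at 34.1 and 37.8 RPKM, RAB5B at 29.1 and 28.1, and RAB5A at 19.0 and 18.7, and the ranges of these genes did not overlap. RAB31, which serves traffic between the Golgi and endosomes, was at 22.8 and 22.9 RPKM, and its paralog RAB22A at 10.9 and 10.1. RAB21, a regulator of integrin uptake, was lowest at 2.85 and 2.75 RPKM. It also had the longest exonic length of the family, 16048 bases, and held 604 and 574 reads.

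Recycling endosome genes split sharply, with 6 of 9 above 1 RPKM and the rest far below. RAB11B and RAB11A, of the slow recycling route, were at 50.6 and 48.9 and at 38.0 and 38.6 RPKM. RAB15, an endosomal RAB described mainly in neural cells, stood between them at 41.2 and 42.3 (chromosome 14, 64945814 to 64973226). RAB35, which acts in fast recycling and in cytokinesis, was at 26.8 and 29.4 RPKM, RAB14 at 27.4 and 24.3, and RAB4A at 7.13 and 6.96. The low members were RAB4B at 0.288 and 0.156 RPKM and the epithelial RABs RAB17 (0.175 and 0.226) and RAB25 (0.0895 and 0.0455).

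The late endosome and lysosome group was the largest in which every gene passed, with 12 of 12, but its median was only 3.67 RPKM and RAB7A held 53.7% of its sum. RAB32, known from melanosomes and other lysosome-related organelles, was at 31.7 and 32.2 RPKM, and its paralog RAB38 at 4.17 and 4.08. RAB12 stood at 12.4 and 12.0 RPKM, and RAB29, which recruits the kinase LRRK2, at 10.2 and 10.5. RAB9A, which returns receptors from late endosomes to the Golgi, was at 5.58 and 7.20 RPKM. RAB39B, RAB7B, RAB39A, RAB24, RAB9B and RAB20 lay between 3.70 RPKM for RAB39B in replicate 1 and 1.20 RPKM for RAB20 in replicate 1.

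Of 12 genes of secretion and exocytosis 8 passed, led by RAB10, which delivers vesicles to the plasma membrane, at 45.2 and 41.8 RPKM. RAB8B was at 15.5 and 14.1, RAB13, a RAB of junctional traffic, at 15.4 and 13.6, and RAB8A at 7.90 and 8.64. Among RABs of regulated secretion, RAB3B stood at 8.30 and 8.68 RPKM, RAB27A at 6.25 and 6.85, RAB26 at 2.67 and 2.62 and RAB3A at 1.65 and 1.16. RAB27B (0.666 and 0.719), RAB37 (0.268 and 0.288), RAB3D (0.172 and 0.140) and RAB3C (0.0393 and 0.0239) were below 1 RPKM. Both cilium genes passed, RAB23, a brake on Hedgehog signalling, at 8.30 and 8.67 RPKM and RAB28 at 8.65 and 7.75. Of the 7 atypical or unassigned genes, RAB40C, a RAB with a ubiquitin ligase SOCS box, was highest at 6.69 and 6.43 RPKM. RAB6D (2.29 and 2.05) and RAB40B (1.19 and 1.42) also passed, while RAB42 reached the level in 1 library only (1.10 and 0.908). RAB6C, RAB40A and RAB44 were below it.

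The 14 sets of paralogs that share a number hold 34 of the genes. Members of each set were ordered by their mean level over the same 2 libraries. The highest member led the second in both libraries in 13 sets, and in 12 of these the ranges over the libraries did not overlap. That ordering partly builds these counts in, and other gene pairs were not counted beside them. In 9 sets the highest member led at least 2-fold in both libraries, and in 3 sets (RAB4, RAB7 and RAB33) at least 10-fold by point estimate. An exact test of 2 values against 2 cannot give a p below 0.333, so intervals are given in place of a test. They are 95% exact (Clopper-Pearson) intervals of the ratio within each library and cover counting error only.

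**Figure D3:**
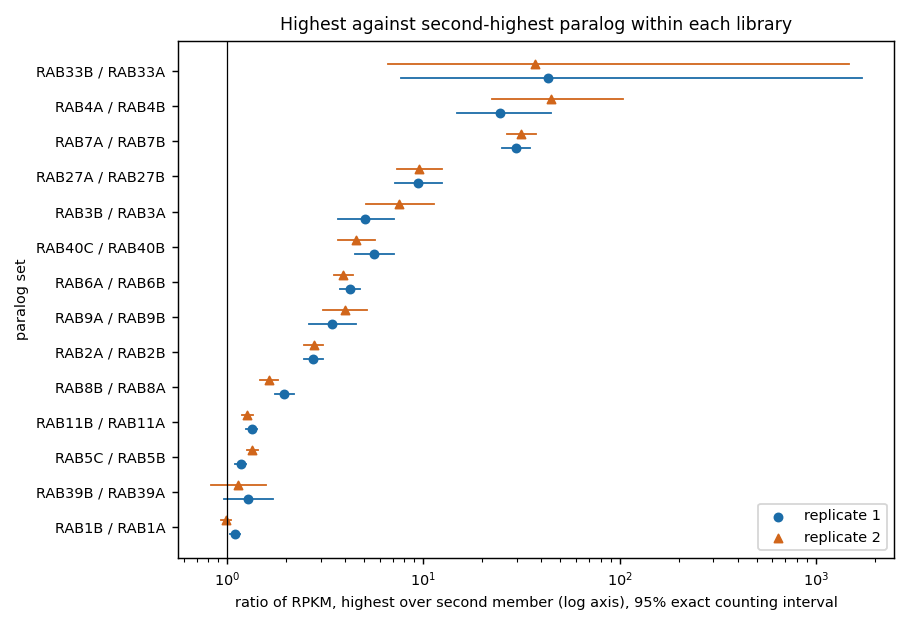
Ratio of RPKM (log axis) of the highest over the second-highest member of each of the 14 paralog sets, in replicate 1 (circles) and replicate 2 (triangles), with 95% exact counting intervals as lines. RAB1B over RAB1A lies on both sides of 1, RAB39B over RAB39A has intervals that include 1, and the other sets lie to the right of 1.

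The RAB7 set was among the most uneven. RAB7A exceeded RAB7B, a late endosomal RAB that shares 64.4% of its aligned coding bases, 29.6-fold (interval 25.1 to 35.1) in replicate 1 and 31.4-fold (26.6 to 37.5) in replicate 2. RAB27A exceeded RAB27B, both of secretory granules, 9.38-fold (7.20 to 12.4) and 9.53-fold (7.37 to 12.5). In the RAB3 set, whose products act in regulated exocytosis, RAB3B led RAB3A 5.03-fold (3.66 to 7.10) and 7.47-fold (5.12 to 11.4). This ratio also depended on length, with a mean log2 value of 2.62 on the RPKM scale and of 5.45 from undivided reads (1403 reads of RAB3B and 39 of RAB3A in replicate 1). RAB6A led RAB6B 4.23-fold (3.78 to 4.74) and 3.92-fold (3.52 to 4.37). RAB32 led RAB38 7.61-fold and 7.89-fold, and RAB34 led RAB36 8.97-fold and 8.20-fold. RAB4A led RAB4B 24.7-fold (14.8 to 44.7) and 44.6-fold (22.3 to 104), from 15 and 8 reads of RAB4B. RAB33B led RAB33A 43.3-fold and 37.3-fold. Its intervals were wide, from 7.69 to 1718 in replicate 1 and from 6.61 to 1481 in replicate 2, because RAB33A held 1 read in each. Both of these intervals reach below 10. RAB25, the epithelial relative of the RAB11 genes, was 565-fold below RAB11B in replicate 1, with an interval of 156 to 4670 from 2 reads of RAB25, and 1076-fold in replicate 2, with an interval of 193 to 42529 from 1 read.

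Other sets lay closer together. RAB1B over RAB1A was 1.10 (1.03 to 1.16) in replicate 1 and 0.987 (0.928 to 1.05) in replicate 2, so their order changed between the libraries. RAB39B over RAB39A was 1.28 (0.966 to 1.71) and 1.13 (0.823 to 1.57). RAB11B over RAB11A was 1.33 (1.25 to 1.42) and 1.27 (1.19 to 1.35), and RAB5C over RAB5B was 1.17 (1.09 to 1.25) and 1.35 (1.26 to 1.44). These values depended on the division by exonic length, and the order reversed without it in the RAB11 and RAB5 sets. RAB11A held more reads than RAB11B (2854 in each library, against 1545 and 1471), spread over an exonic length of 5680 bases against 2309. RAB5B likewise held 2511 and 2384 reads over 6525 bases, and RAB5C held 1244 and 1358 over 2761. Undivided reads gave a mean log2 ratio of -0.92 for RAB11B over RAB11A and of -0.91 for RAB5C over RAB5B. For RAB1B over RAB1A they gave -0.71, and RAB1A then led in both libraries. For RAB39B over RAB39A they gave 1.13, against 0.27 on the RPKM scale. The exonic length counts all annotated exons, and which 3′ ends the cells used was not measured.

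Between RAB8, RAB10 and RAB13, close relatives in exocytosis, RAB10 exceeded RAB8B 2.92-fold (2.71 to 3.15) and 2.97-fold (2.75 to 3.21). The mean log2 value of this ratio was 1.56 on the RPKM scale and 1.08 from undivided reads. RAB8B and RAB13 did not differ beyond counting error on the RPKM scale, with ratios of 1.00 (0.904 to 1.11) and 1.04 (0.927 to 1.16). That result depended on the division by exonic length. RAB8B held 1044 and 935 reads over 5103 bases, and RAB13 held 564 and 489 over 2763. RAB8B led RAB8A 1.96-fold (1.76 to 2.18) and 1.63-fold (1.46 to 1.81). RAB2A led RAB2B 2.75-fold and 2.76-fold, RAB9A led RAB9B 3.44-fold and 3.97-fold, and RAB40C led RAB40B 5.62-fold and 4.53-fold.

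Some values, low and high, belong to genes whose reads are uncertain. For RAB6C, 55.8% of its 50-base words also occurred in GENCODE transcripts of genes elsewhere, and for RAB6D 55.0%. The levels of RAB6D (92 and 81 reads) and RAB6C (21 and 18 reads) therefore depend on how shared reads were placed, which is not given in the sources used here. Such words made up 36.4% for RAB43, 14.2% for RAB6A, 12.3% for RAB40A, 12.2% for RAB13 and under 1% for 43 of the 62 genes. Overlap on the genome touched others. RAB43 shares 79.3% of its exonic bases with the readthrough gene ISY1-RAB43, and RAB4B shares 39.6% with the readthrough genes RAB4B-EGLN2 and MIA-RAB4B and a further gene. None of these readthrough genes is listed. RAB23 shares 57.7% with BAG2 on the other strand (14.2 and 13.8 RPKM), and RAB24 shares 44.8% with MXD3 on the same strand (10.6 and 9.51 RPKM). Members of higher level overlap too, among them RAB1B with 42.6% of its exonic bases, RAB8A with 41.7% and RAB5C with 30.4%. For RAB13 the share is 24.8%, and for RAB1A 22.9%, so their paralog ratios carry the same limit. In total, 17 members share more than 10% of their exonic bases with another gene on either strand. The part of these overlaps in the levels was not tested.

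Agreement between the libraries was close for most members. Of 62 genes, 1 differed between the libraries by the exact binomial test on recovered reads with Benjamini-Hochberg adjustment over all entries, against 0.971% of 17912 entries, and 9 (14.5%) had an unadjusted p under 0.05, against 9.22% of entries. It was called as higher in replicate 1, as were 0.352% of entries, and no member was called as higher in replicate 2, as were 0.62%. That gene was RAB34, with 3189 reads in replicate 1 and 2829 in replicate 2. Its log2 ratio of replicate 2 over replicate 1 was -0.14 ± 0.037 (counting SE), adjusted p = 0.0188 by that exact test. At a threshold of 0.01 no member and 111 of 17912 entries were called. This test compares the libraries, not conditions. By point estimate 28 members were higher in replicate 2 and 34 in replicate 1, and the median size of the log2 ratio was 0.12, against 0.10 over all entries. RAB41, with 4 and 10 reads, had the largest ratio, a log2 value of 1.35.

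**Figure D4:**
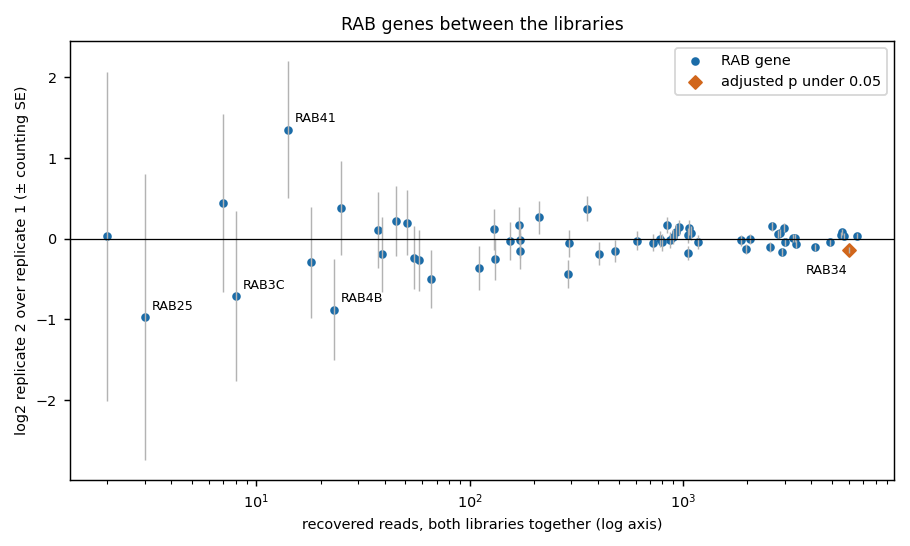
Log2 ratio of replicate 2 over replicate 1 against the reads of both libraries together (log axis) for the 62 RAB genes, with the counting SE as bars. RAB34, with 3189 and 2829 reads, is the diamond, and ratios beyond 0.6 in either direction belong to RAB41, RAB25, RAB4B and RAB3C, which have few reads.

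Gene starts were compared as a feature the choice of members did not use. RefSeq windows on GRCh38.p14, from 250 bases before to 50 after the gene start, were found for 49 members. RAB12, RAB15, RAB1A, RAB20, RAB26, RAB2A, RAB33A, RAB33B, RAB36, RAB37, RAB38, RAB39B and RAB44 had none. The lines below show the 250 bases before the RefSeq start of a high and a low gene of related sequence, 5′ to 3′ on the gene's strand, with CpG dinucleotides in capitals.
RAB11B: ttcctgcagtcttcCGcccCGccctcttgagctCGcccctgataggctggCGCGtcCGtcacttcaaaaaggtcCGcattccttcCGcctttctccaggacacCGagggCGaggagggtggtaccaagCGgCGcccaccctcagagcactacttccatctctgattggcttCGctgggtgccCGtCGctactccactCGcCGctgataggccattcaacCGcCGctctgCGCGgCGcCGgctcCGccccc
RAB25: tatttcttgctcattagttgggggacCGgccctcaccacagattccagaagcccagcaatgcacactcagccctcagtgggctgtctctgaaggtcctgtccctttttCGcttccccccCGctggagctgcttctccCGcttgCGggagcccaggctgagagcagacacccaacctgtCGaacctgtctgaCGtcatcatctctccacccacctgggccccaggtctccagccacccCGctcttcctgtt
RAB7A: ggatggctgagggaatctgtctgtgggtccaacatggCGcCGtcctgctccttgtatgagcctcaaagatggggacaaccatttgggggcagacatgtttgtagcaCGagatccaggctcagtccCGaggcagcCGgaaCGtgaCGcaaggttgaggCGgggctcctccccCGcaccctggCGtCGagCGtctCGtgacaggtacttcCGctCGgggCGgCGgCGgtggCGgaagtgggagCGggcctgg
RAB7B: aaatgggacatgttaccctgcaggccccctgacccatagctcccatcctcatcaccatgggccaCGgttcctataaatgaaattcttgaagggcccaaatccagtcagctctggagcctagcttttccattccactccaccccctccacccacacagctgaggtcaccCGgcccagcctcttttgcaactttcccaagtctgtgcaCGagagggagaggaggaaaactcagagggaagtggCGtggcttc
These stretches lie at chr19:8390110-8390359 for RAB11B, chr1:156060910-156061159 for RAB25, chr3:128725933-128726182 for RAB7A, all on the plus strand, and chr1:206003396-206003645 on the minus strand for RAB7B. They hold 24 CpG for RAB11B against 8 for RAB25, and 20 for RAB7A against 4 for RAB7B. These pairs were chosen after their values were seen, and other sets differed from them. RAB4A and RAB4B both had CpG-rich windows as defined below, with CpG ratios of 0.964 and 0.842. RAB3B, the highest of its set, had a window that was not CpG-rich (ratio 0.581), while RAB3A, RAB3D and RAB3C, all lower, had CpG-rich ones. Genes have further starts in GENCODE, and the start used in these cells was not measured.

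Counting a window as CpG-rich at a GC content of at least 50% and a CpG count of at least 0.6 of that expected from its bases, 36 of 49 members (73.5%) qualified, against 71.4% of the 13382 entries with a window. Of the 36, 32 passed 1 RPKM, and of the other 13, 6 did. Over all entries the shares passing were 81.0% and 44.2%. Median levels were 8.26 RPKM for the CpG-rich members and 1.00 for the others, against 6.48 and 0.729 over all entries. RAB34, RAB13, RAB29, RAB3B, RAB7B and RAB6D passed 1 RPKM without a CpG-rich window, and RAB34 did so at 69.4 ± 5.1 RPKM (mean ± SD, n = 2). Spearman's rho between the CpG ratio and the mean level was 0.25 across 49 members and 0.37 across all entries with a window, given as a description, since genes share libraries and base composition. The motif CACGTG, the core of the element that the lysosomal regulator TFEB binds and a palindrome read alike on both strands, was found in 6 member windows (12.2%), those of RAB31, RAB5A, RAB29, RAB4A, RAB21 and RAB24, in 9.28% of the entries with a window and in 7.43% of all 27305 windows. A match is not shown to be a bound site.

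**Figure D5:**
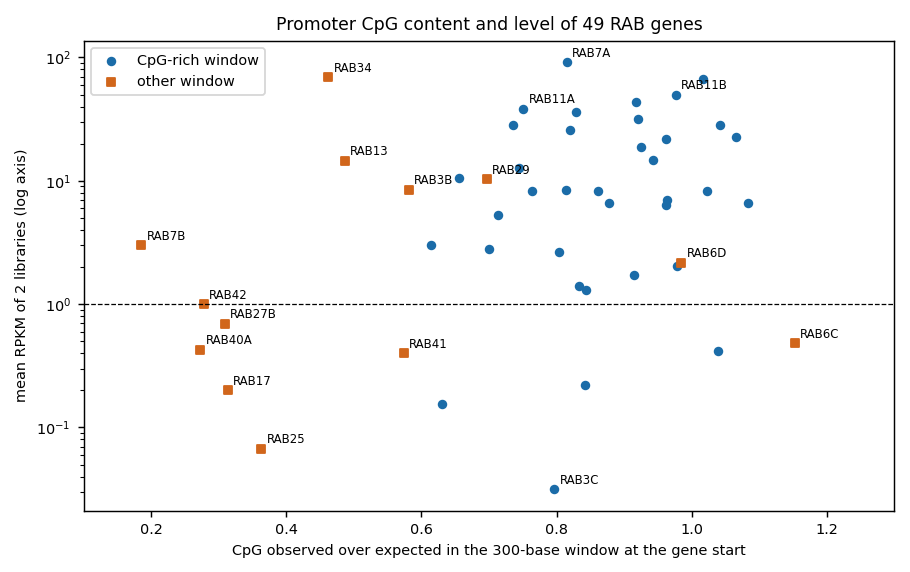
Mean RPKM of the 2 libraries (log axis) against the CpG ratio, observed over expected, in the 300-base window at the gene start of 49 RAB genes, with CpG-rich windows as circles, other windows as squares and a dashed line at 1 RPKM. RAB34 at 69.4 RPKM is the highest of the squares.

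The members lie on 21 chromosomes. Of the 6 on chromosome X, RAB9A, RAB39B and RAB9B passed 1 RPKM, and RAB40A, RAB41 and RAB33A did not. Gene spans ran from 2.55 kb for RAB24 to 277 kb for RAB3C.

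Genes that run the RAB cycle were taken from lists of prenylation and escort genes, exchange factors, GTPase-activating proteins and effectors. Together 146 of 161 listed genes passed 1 RPKM in both libraries, beside 66.7% of all entries and 72.8% of protein-coding entries, with no test made of the lists. All 9 genes of prenylation, escort and extraction passed, with a median of 12.7 RPKM. The GDP dissociation inhibitor gene GDI2 led (92.0 and 90.4 RPKM), and the escort gene CHML was at 21.1 and 21.8. The subunit gene RABGGTA (5.35 and 5.20) and the escort gene CHM (5.06 and 5.14) were lowest. Of 49 listed exchange factor genes 43 passed, with a median of 5.21 RPKM, led by TRAPPC1 (52.6 and 57.3), HPS4 (24.7 and 24.1) and SBF1 (22.1 and 22.2). DENND2D and DENND1C were lowest, the second at 0.0488 and 0.0496. On the list of GTPase-activating proteins 31 of 36 genes passed, with a median of 6.26 RPKM. The activity of their products was not measured. Highest on that list were TBC1D23 (33.1 and 33.8), TBC1D1 (26.6 and 26.5) and TBC1D13 (19.9 in each library), with TBC1D30 and SGSM1 lowest. Among effectors 63 of 67 passed, with a median of 7.10 RPKM, led by PLIN3 (36.2 and 33.5), the MICAL-like gene MICALL1 (33.9 and 34.1) and EHBP1L1 (33.9 and 32.8), with RIMS1 and MYO5C lowest.

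Marker genes were read beside the tissue-typical RABs. Over the table, 66.7% of all entries and 72.8% of protein-coding entries passed 1 RPKM in both libraries. The marker lists are short, no test of them was made, and a count passing does not name a cell type. Mesenchymal and osteoblast markers passed in 8 of 10 listed cases, with SPARC at 277 and 283 RPKM, while BGLAP and COL1A2 were below the level and SP7 and IBSP were not listed. Beside the low RAB25 and RAB17, 4 of 8 listed epithelial markers passed, KRT18, KRT8, EPCAM and CLDN4, and CDH1 was at 0.694 and 0.931 RPKM. KRT19 and GRHL2 were not listed. Beside RAB15 and RAB3B, 6 of 10 neuronal and neuroendocrine markers passed, led by NEFL at 16.5 and 15.7 RPKM, with ELAVL4 and STMN2 lowest. Beside RAB32 and RAB38, 1 of 7 listed melanocyte markers passed, MITF at 6.64 and 6.51, with DCT lowest. Haematopoietic markers passed in 2 of 7 cases, LCP1 at 30.7 and 31.3 RPKM and CD3D at 1.14 and 1.07. The summed level of the mesenchymal and osteoblast list was 929 and 952 RPKM, and of the epithelial list 79.7 and 76.1. It was 33.1 and 31.9 for the neuronal list, 7.99 and 8.10 for the melanocyte list and 33.5 and 34.0 for the haematopoietic list. These sums rest on few genes and the lists differ in length, so they do not rank cell types. LCP1 and MITF made up most of the haematopoietic and melanocyte sums. Most of the epithelial sum came from KRT18 (43.6 and 41.5 RPKM) and KRT8 (30.3 and 29.3). The cultures were of 1 cell line, U2OS, and the presence of any other cells was not tested.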

How the data were processed

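Per the file headers, the authors deposited RPKM for each library, in a table of 18277 rows. The submitters' processing notes name the tools HISAT2, Trim Galore and featureCounts, and GRCh38.p13 and hg38 as builds. For tool versions, gene annotation, strand setting and filters, the sources used here give nothing. A set of 58 symbols with several rows (194 rows) was left out, and values shared by several symbols were taken once over the table, which left 17912 entries.

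Whole reads were recovered from the RPKM: 1019 genes with equal reads gave the ratio of the library totals, and a ratio of whole numbers was then found for every entry (relative tolerance 3e-14). The remaining whole factor per gene was set from exonic lengths in GENCODE release 29 on GRCh38. The implied length lay within 10% of GENCODE's for 60 of 62 members, which is partly built in by that choice. Libraries were compared with the 2-sided exact binomial test after trimmed mean of M values scaling (factors 1.0026 and 0.9974). The recovery and the test were tested on simulated data whose noise was counting error only. Those data were built with the same GENCODE lengths that the recovery then used. Lengths that differ from GENCODE's, and spread beyond counting error, were therefore not covered. Among the members, 18 of 62 had an implied length equal to GENCODE's. Coding sequences were aligned globally, and 50-base words were matched on both strands. Computation used scipy 1.17.1, numpy 2.4.6, pandas 2.3.3 and Python 3.11.15.

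The members and lists were chosen with earlier results of these data known. Every member could be named, and of each list of cycle genes the 3 highest and 2 lowest, except for an item that is not reported here. The sequences shown and the further genes named for overlap were chosen after their values were seen. Protein sequences are not used here; GENCODE coding lengths took the place of the planned RefSeq ones.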

Additional observations from a re-analysis of the deposited data

How the results depend on the processing

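Alternatives covered the level, the length that divides the reads, a pseudocount, the step given to RAB8A, RAB10 and RAB34, the scaling and each library alone. The 48 RAB genes at the level stayed between 34 (5 RPKM) and 55 (1 TPM), and numbered 48 and 49 without either replicate. Of the 14 numbered paralog sets, 13 had 1 leader in both libraries, and 11 had that leader in both with coding length or undivided reads; RAB1, RAB5 and RAB11 did not. The mean log2 ratio reversed for RAB5C over RAB5B with coding length (-1.12) and with undivided reads (-0.91), and for RAB11B over RAB11A with coding length (-0.93) and with undivided reads (-0.92); the length is what these settings change. For RAB1B over RAB1A, without an order on the RPKM scale, the values were -0.68 and -0.71. The same 2 settings gave 5.46 and 5.45 for RAB3B over RAB3A (2.62 on the RPKM scale), 7.70 and 7.65 for RAB33B over RAB33A (5.33), 1.15 and 1.13 for RAB39B over RAB39A (0.27), 2.13 and 2.10 for RAB2A over RAB2B (1.46), 1.05 in both for RAB9A over RAB9B (1.89), and 0.36 and 0.37 for RAB31 over RAB22A (1.13). The share of the recycling endosome (21.3%) was 23.0% with undivided reads and 26.2% with the other step assignment. Undivided reads moved late endosomes from 19.0% to 12.0%, and early endosomes from 13.3% to 18.1%, above the ER to Golgi step at 16.7%. The other assignment moved the Golgi from 12.4% to 4.70%, secretion from 11.3% to 5.52% and the cilium from 1.86% to 10.5%. By the exact binomial test, 0 members differed between the libraries at an adjusted p under 0.01 (111 of 17912 entries), against 1 at 0.05 (174 entries) and 9 at an unadjusted p under 0.05 (9.22% of entries). Rab cycle genes at the level (146 of 161) numbered 91 at 5 RPKM. Shares of all entries at 5 RPKM and at 1 TPM are not given here. The counts of RAB and cycle genes at those levels are therefore not set against the table. No paired analysis was possible because the series holds 1 group. A library cannot be left out of the comparison between libraries. Depth limits the 23 members with fewer than 100 reads in a library.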
